A study of Drosophila melanogaster with 12 samples.

Results

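Drosophila melanogaster embryos labelled elav null were compared with balancer control embryos across all genes of a read count table. The comparison was chosen by the labels of the libraries and takes 6 of the 12 libraries of the series, 3 labelled elav null and 3 labelled WT. The embryos were 20 to 24 h old, the last hours before hatching, and poly(A)-selected RNA of whole embryos was sequenced. The control is not free of mutant alleles. Its label gives the elav[e5] allele over the FM7 balancer X chromosome, whereas the header of the count table names the same columns elav[null]/FM7. Mutant embryos were sorted by their lack of the green fluorescent protein carried on the FM7 KrGFP balancer, helped by their autofluorescence and shape. The series also holds 3 libraries of an elav fne double null and 3 of an elav allele labelled WDd, which is not described further. These 6 libraries entered the same model and lent it their spread. Where a result is repeated without a library, the libraries are written WT 1 to 3 and elav null 1 to 3, after their replicate numbers. The labels do not state the sex, collection date, sequencing batch or number of embryos per library, and do not say whether replicates were separate collections. The p-values therefore measure only the spread between these libraries.

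ELAV is an RNA-binding protein of neurons that acts in the nucleus, where it regulates alternative splicing and the choice of poly(A) site of neuronal transcripts. FNE and Rbp9 are its close relatives in the fly. elav is used as a marker of nearly all differentiated neurons, and embryos that lack its function die around the end of embryogenesis. In the same hours, a control embryo deposits and tans the larval cuticle, fills its trachea with air, begins coordinated muscle contraction and uses up the yolk. A count per gene does not show splicing or poly(A) site use. In RNA from whole embryos, fewer cells of a type and less RNA per cell cannot be told apart.

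Several libraries stood apart before any comparison. The 6 libraries held from 22491041 counts (elav null replicate 3) to 97043662 counts (WT replicate 1). Of 17561 genes in the table, 5621 had 0 counts in elav null replicate 1 and 7033 in replicate 3, against 3569 in replicate 2 and 2309 to 4047 in WT. Genes with 1 to 10 counts numbered 168 and 116 in elav null replicates 1 and 3, against 1553 in replicate 2 and 978 to 2828 in WT. Low values were thus nearly missing from elav null replicates 1 and 3, and a 0 in these libraries is not bounded by the 3 counts that limit a 0 elsewhere. Of 9009 genes above 2 CPM in every WT library, 44, 12 and 285 had 0 counts in elav null replicates 1, 2 and 3. Mitochondrial rRNA made up 9.54% of elav null 2, 10.1% of elav null 3, 0.650% of elav null 1, and 2.14% to 3.54% of the WT counts. Pearson correlations of log CPM across genes, given as a description, were 0.955 to 0.965 among WT libraries and 0.930 between elav null replicates 1 and 2. Replicate 3 reached 0.863 and 0.883 with these, and 0.913, 0.861 and 0.907 with the double null libraries. The values with the double null were 0.921, 0.880 and 0.916 for replicate 1 and 0.950, 0.897 and 0.947 for replicate 2, above those of replicate 3. Because fne stood near its double null level in replicate 3, results are given with it and without it.

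**Figure D1:**
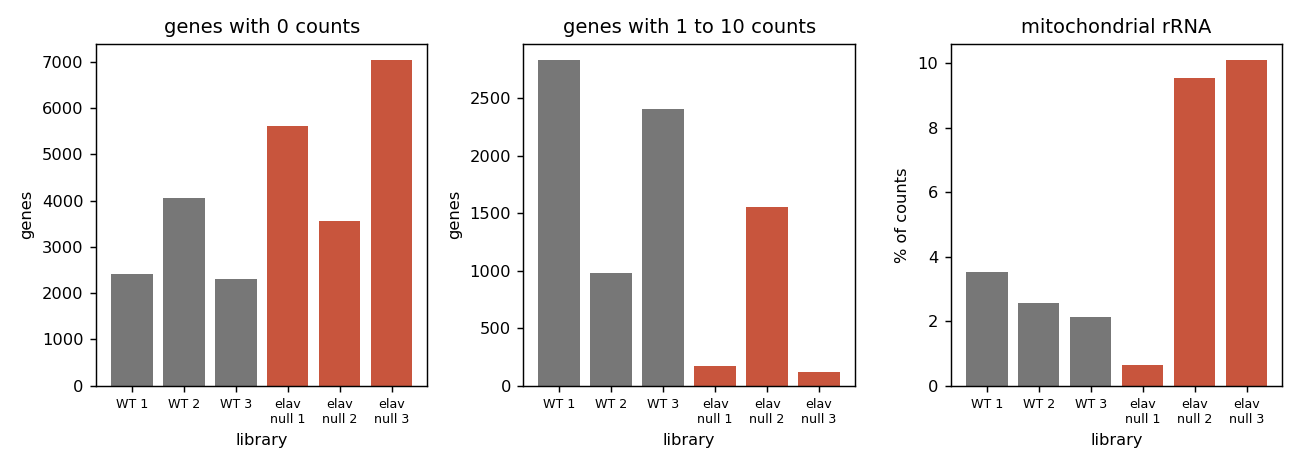
Library properties of the 3 WT (grey) and 3 elav null (red) libraries. The bars give the number of genes with 0 counts, the number of genes with 1 to 10 counts, and the percentage of counts from mitochondrial rRNA. elav null replicates 1 and 3 have 5621 and 7033 genes with 0 counts and only 168 and 116 genes with 1 to 10 counts, and elav null replicates 2 and 3 have 9.54% and 10.1% of mitochondrial rRNA.

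Of 14031 genes tested with edgeR's quasi-likelihood test, 841 (5.99%) were higher and 1638 (11.7%) lower in elav null at a Benjamini-Hochberg adjusted p under 0.05. Levels are counts scaled to library size with TMM factors (CPM), and fold changes are log2 of elav null over WT with the standard error (SE) of the model. A fold above 2 was reached by 479 of the higher and 1141 of the lower genes, and a fold above 4 by 171 and 459. The 3 values of one group lay outside the range of the other for 802 of the higher and 1590 of the lower genes, and for 31.2% of all genes tested. Most genes named below were chosen among called genes, so their separate groups are a description and add no support. Levels in elav WDd are given for few genes, so a change against WT is not thereby particular to elav null. GluProRS, ThrRS, Cpr11A, Lsd-2 and GstE3, lower in elav null, were below every WT library in elav WDd too. Act57B, also lower in elav null, lay inside the WT range in elav WDd. When elav null replicate 3 was left out, 14697 genes were tested, of which 855 (5.82%) rose and 1636 (11.1%) fell. The fits shared 681 higher and 1374 lower genes, and no gene was called in opposite directions. The number of higher genes rested most on a control library and was 493 without WT replicate 2. The median log2 fold change of all genes tested was −0.11, and −0.02 with RLE scaling, so group medians below are read against a zero point that itself depends on the scaling by this amount. Of the genes called lower, 210 had 0 counts in at least 1 elav null library, and 14 of those called higher did. Counts of called members in the lists below are read against the 5.99% higher and 11.7% lower of all genes tested.

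elav, the gene removed, was read first (CG4262; X: 509235 to 523226, dm6). It stood at 68.6, 109.5 and 161 CPM in WT replicates 1 to 3 and at 3.98, 4.78 and 6.27 CPM in elav null replicates 1 to 3. The groups were far apart, and all 3 libraries labelled elav null carried the low level. The log2 fold change was −4.51 ± 0.30 SE (edgeR adjusted p = 1.61e-06), and −4.68 without replicate 3. The span of elav overlaps that of arg, which encodes arginase, and reads in the overlap cannot be assigned with certainty. arg stood at 30.7, 15.3 and 15.96 CPM in WT and 16.1, 10.2 and 20.5 CPM in elav null, overlapping groups that did not pass the test (−0.41 ± 0.31 SE, edgeR adjusted p = 0.436). Rbp9 stood at 73.1, 85.4 and 94.5 CPM in WT and fell to 44.0, 35.7 and 14.5 CPM in elav null (−1.42 ± 0.30 SE, edgeR adjusted p = 0.00482). The fall was smaller without replicate 3 (−1.07, edgeR adjusted p = 0.00138). Rbp9 lost its call when only the 6 libraries compared were fitted (edgeR adjusted p = 0.0522). fne stood at 135, 202 and 249.7 CPM in WT and at 173, 243 and 36.2 CPM in elav null. Replicates 1 and 2 lay inside the WT range and replicate 3 far below it, so the log2 fold change turned from −0.37 (edgeR adjusted p = 0.661) to 0.10 (0.853) without that library.

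**Figure D2:**
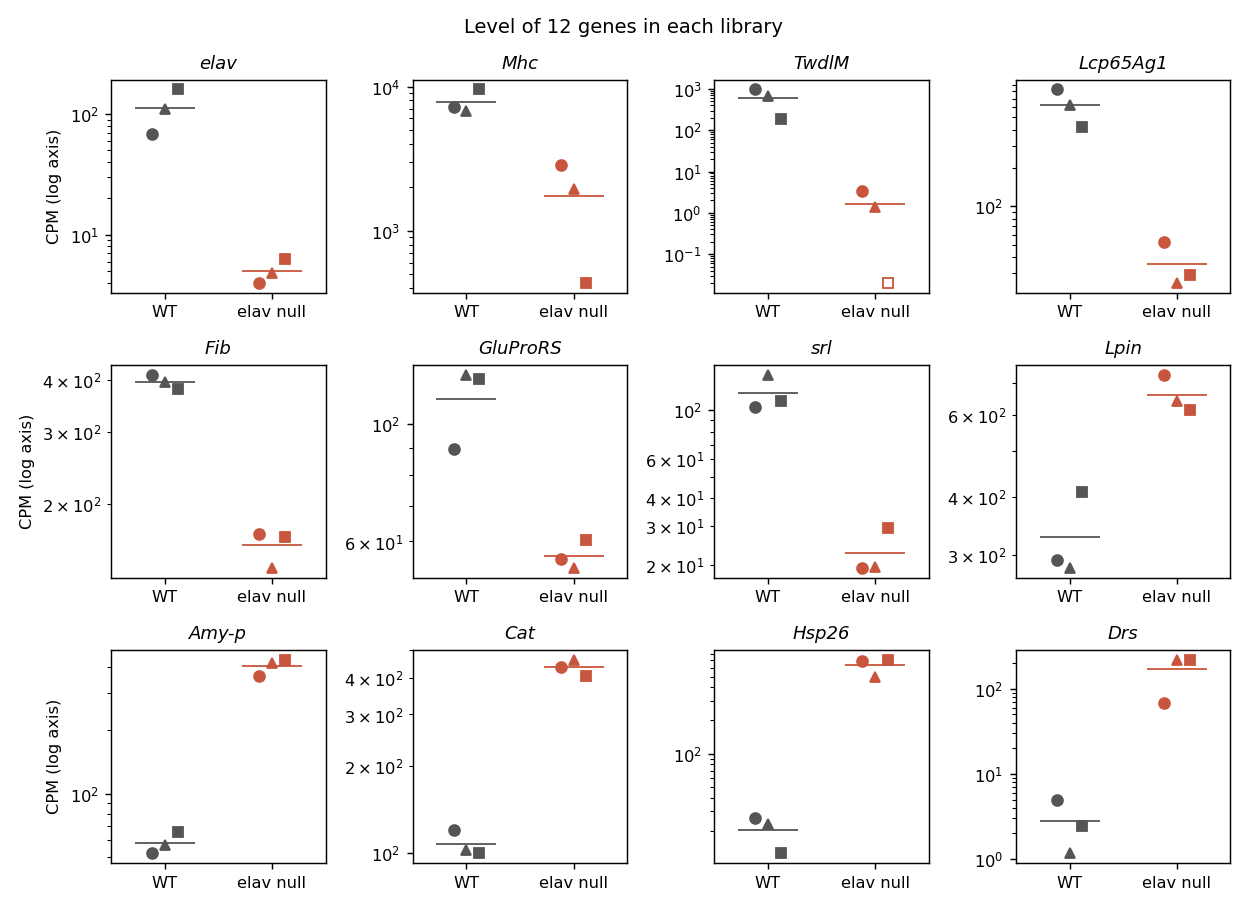
Level of 12 genes in CPM (log axis) in each library of WT (grey) and elav null (red). Circles, triangles and squares are replicates 1, 2 and 3, horizontal lines are group means, and an open symbol at the bottom of a panel marks a library with 0 counts. In elav, Mhc, TwdlM, Lcp65Ag1, Fib, GluProRS and srl all elav null libraries lie below all WT libraries, and in Lpin, Amy-p, Cat, Hsp26 and Drs above them; Mhc falls to 433 CPM in elav null replicate 3.

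Genes of the contractile apparatus were lower in elav null. Of 25 genes of sarcomere proteins, 21 were called lower and none higher, against 11.7% and 5.99% of all genes tested, and their median log2 fold change was −2.04. Without elav null replicate 3, 22 were lower and the median was −1.68. Over the 6 fits that leave out a library 15 to 23 were lower, and 9 when only the 6 libraries compared were fitted. Mhc, the muscle myosin heavy chain (CG17927; 2L: 16766566 to 16788766), stood at 7187, 6795 and 9549 CPM in WT and at 2831, 1933 and 433 CPM in elav null. Act57B, a larval muscle actin, stood at 14330, 14470 and 17085 CPM in WT and at 5670, 2236 and 528 CPM in elav null. In both genes every elav null library was below every WT library, and replicate 3 was the lowest by a wide margin. The log2 fold change was −2.18 ± 0.54 SE for Mhc (edgeR adjusted p = 0.0132) and −2.44 ± 0.59 SE for Act57B (edgeR adjusted p = 0.0112). Without replicate 3 the log2 fold changes were −1.71 and −1.94 (edgeR adjusted p = 0.00996 and 0.00413). Both genes lost their calls when only the 6 libraries compared were fitted (edgeR adjusted p = 0.057 and 0.0714). The projectin gene bt fell with them (−2.82 ± 0.44 SE, edgeR adjusted p = 0.000555). Mlc2, a myosin light chain, was lower with less certainty (−1.89 ± 0.58 SE, edgeR adjusted p = 0.0367). It lost its call without WT 1 or 2 or elav null 2, with log2 fold changes from −2.64 to −1.40 over the 6 fits that leave out a library. The summed level of 4 body wall muscle marker genes was 24770 to 33230 CPM in WT, and in elav null replicates 1 to 3 it was 9692, 5081 and 1357 CPM, the last just below the double null libraries (1431 to 2861 CPM). These markers are Mhc, Act57B, bt and sls. Mhc, Act57B and bt are the called genes described above, so the sum restates them and is not separate evidence.

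Receptors of the neuromuscular junction followed. Of 10 such genes 6 were lower and none higher, with and without replicate 3, and the median log2 fold change was −1.31 (−1.18 without replicate 3). GluRIIA, a subunit of the muscle's glutamate receptor (CG6992; 2L: 5555072 to 5558994), stood at 55.4, 49.7 and 61.2 CPM in WT and at 15.02, 7.71 and 8.27 CPM in elav null. GluRIIC, a subunit that the receptor requires, stood at 26.7, 24.4 and 31.7 CPM in WT and at 14.9, 7.15 and 6.18 CPM in elav null. Neither gene had overlapping groups, and in both, elav null replicate 3 lay close to replicate 2. GluRIIA fell by 2.42 (SE 0.24, edgeR adjusted p = 2.95e-05) and GluRIIC by 1.54 on the log2 scale (SE 0.35, edgeR adjusted p = 0.00759). dlg1, the scaffold protein Discs large of synapses and epithelial junctions, fell by 0.85 (SE 0.20, edgeR adjusted p = 0.0102). Nlg1, a neuroligin of the postsynaptic side, was called lower (−1.07 ± 0.35 SE, edgeR adjusted p = 0.0483) but lost the call without WT 2 or 3 or elav null 1 or 2 (−1.61 to −0.77 over the 6 fits).

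The attachment of muscle to tendon cells and its formation gave 7 lower genes of 20 and none higher, and 6 without replicate 3. if, which encodes an integrin alpha subunit of muscle attachment sites, stood at 280.2, 271 and 360.2 CPM in WT and at 128, 79.1 and 93.2 CPM in elav null (−1.60 ± 0.19 SE, edgeR adjusted p = 8.63e-05). Its partner mys, the integrin beta subunit, was at 342, 354 and 432 CPM in WT and 228, 232 and 292 CPM in elav null. The groups did not overlap in either gene, but the difference in mys was small (−0.59 ± 0.18 SE, edgeR adjusted p = 0.0363) and lost its call without WT 3 or elav null 1 or 2 (−0.70 to −0.47 over the 6 fits). The integrin-linked kinase gene Ilk (−0.79 ± 0.18 SE) and how, an RNA-binding protein of muscle and tendon (−0.84 ± 0.18 SE), were lower in all 6 fits that leave out a library. Both lost their calls when only the 6 libraries compared were fitted (edgeR adjusted p = 0.0542 and 0.0615). That fit called 2 genes of the list lower. Compared with the sarcomere list, whose median was −2.04, the attachment list had a median of −0.39.

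Many genes of the larval cuticle were lower as well. Of 90 genes of RR-type cuticle proteins, which bind chitin through a shared domain, 42 were lower and 1 higher, with a median log2 fold change of −1.85 (39 lower, 2 higher and −1.71 without replicate 3). Lcp65Ag1, a larval cuticle protein (CG10530; 3L: 6134697 to 6135274), stood at 830.0, 627 and 419 CPM in WT and at 52.3, 25.1 and 28.8 CPM in elav null. Its neighbour Lcp65Ag2, a similar gene whose reads may be shared, stood at 1258, 749.5 and 677 CPM in WT and at 167, 88.8 and 171 CPM in elav null. The groups were clearly separated and elav null replicate 3 was not the lowest library. Lcp65Ag1 fell by 4.14 (SE 0.33, edgeR adjusted p = 4.9e-06) and Lcp65Ag2 by 2.65 on the log2 scale (SE 0.29, edgeR adjusted p = 4.12e-05). Cpr11A stood at 426, 497 and 485 CPM in WT and at 168, 104 and 117 CPM in elav null (−1.86 ± 0.21 SE, edgeR adjusted p = 6.27e-05). Ccp84Aa fell from 32.4, 19.9 and 19.5 CPM in WT to 0.0113, 0.198 and 0.464 CPM (−7.14 ± 1.03 SE, edgeR adjusted p = 0.000301). These 4 genes kept their calls in all 6 fits that leave out a library.

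The Tweedle family, cuticle proteins found in insects, split in direction. Of 25 genes 13 were lower and 3 higher, with a median log2 fold change of −3.29 (11 lower, 2 higher and −3.66 without replicate 3). TwdlB stood at 480.5, 271 and 108 CPM in WT and at 3.20, 1.70 and 0 CPM in elav null (−7.32 ± 0.97 SE, edgeR adjusted p = 0.000164). TwdlL stood at 619, 313 and 177 CPM in WT and at 12.99, 12.2 and 37.8 CPM in elav null (−4.15 ± 0.50 SE, edgeR adjusted p = 8.51e-05). TwdlO, which lies beside TwdlL on 3R, stood at 69.5, 75.4 and 60.1 CPM in WT and at 391, 203 and 466 CPM in elav null (2.37 ± 0.28 SE, edgeR adjusted p = 8.03e-05). Neighbouring genes of a single cluster thus went opposite ways. TwdlN, in the same region of 3R, rose from 2111, 1032 and 1597 CPM to 3688, 2665 and 4353 CPM (1.18 ± 0.26 SE, edgeR adjusted p = 0.00619). The summed level of all 25 genes was 2295 to 5266 CPM in WT and 3001 to 5051 CPM in elav null, so the groups overlapped in the sum. Several Tweedle genes were uneven among the controls themselves. TwdlD stood at 271, 219.6 and 4.30 CPM in WT replicates 1 to 3 and at 0.619, 0.264 and 0 CPM in elav null (−8.80 ± 1.31 SE, edgeR adjusted p = 0.00038). The median of the list was 0.93 in WT replicate 1 and −1.07 in WT replicate 3, each relative to the WT mean on the log2 scale.

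Obstructor and Vajk genes, which encode secreted chitin-binding and cuticle-associated proteins, gave 7 lower and 1 higher of 13, with and without replicate 3. Vajk2 stood at 1756, 1377 and 1780 CPM in WT and at 693, 414 and 814 CPM in elav null (−1.35 ± 0.24 SE, edgeR adjusted p = 0.00121). Vajk3 was close to it at 1669, 1386 and 2088 CPM in WT and 756, 472 and 880.5 CPM in elav null (−1.29 ± 0.23 SE, edgeR adjusted p = 0.0016). obst-E, a determinant of larval body shape, stood at 337, 227 and 165 CPM in WT and at 14.7, 19.6 and 84.2 CPM in elav null. In obst-E the third elav null library was the highest, and the log2 fold change moved from −2.63 to −3.82 without it (edgeR adjusted p = 0.00312 and 8.3e-06). Gasp, a chitin-binding protein of the trachea, was the gene that rose, from 209, 157 and 146 CPM to 307, 277 and 468 CPM (1.04 ± 0.23 SE, edgeR adjusted p = 0.0068).

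Of 27 genes of chitin synthesis and modification 9 were lower and 4 higher. verm and serp, chitin deacetylases of the trachea and epidermis, fell by 1.08 (SE 0.22, edgeR adjusted p = 0.00432) and 0.91 on the log2 scale (SE 0.22, edgeR adjusted p = 0.0126). Idgf3, a chitinase-like secreted protein, rose by 1.10 (SE 0.19, edgeR adjusted p = 0.00136). Of 14 genes of zona pellucida domain proteins, which anchor epithelia to the apical matrix, 4 were lower, and 8 without replicate 3. Among them zye fell from 63.2, 91.2 and 115 CPM to 24.4, 18.1 and 20.4 CPM (−2.10 ± 0.25 SE, edgeR adjusted p = 8.63e-05). pot, which links the epidermis to the cuticle, fell by 1.27 (SE 0.24, edgeR adjusted p = 0.00247). Osiris genes gave 3 lower calls of 23, and 0 without WT 1 or elav null 1. Osi20 stood at 31.4, 0.572 and 0.0754 CPM in WT replicates 1 to 3 and at 0 in all elav null libraries. Of 10 genes of the trachea and airway 2 were lower, 0 without WT replicate 2 or 3, and 1 without elav null 1 or 2.

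Tanning and pigment genes moved both ways, with 7 lower and 5 higher of 23. ple, tyrosine hydroxylase, stood at 80.1, 121 and 172 CPM in WT and 48.1, 33.4 and 51.3 CPM in elav null. Ddc, dopa decarboxylase, stood at 107, 162 and 142 CPM in WT and 42.9, 33.5 and 15.4 CPM in elav null. These enzymes make dopamine, for neurons and for the cuticle, and neither had overlapping groups (log2 fold changes −1.49 ± 0.31 and −2.16 ± 0.33 SE, edgeR adjusted p = 0.00392 and 0.000483). y, the yellow pigment gene, stood at 83.5, 59.3 and 64.4 CPM in WT and at 27.3, 20.0 and 20.0 CPM in elav null (−1.62 ± 0.20 SE, edgeR adjusted p = 0.00011). In elav WDd y stood at 31.3, 27.0 and 36.2 CPM, also below every WT library. The 5 higher calls were less firm as a count, which was 2 without elav null 3 or WT 2, and 3 without WT 1, WT 3 or elav null 1. speck, an arylalkylamine acetyltransferase that inactivates dopamine, was among them (0.49 ± 0.15 SE, edgeR adjusted p = 0.0352) and lost its call without WT 1 or 2 or elav null 3 (0.36 to 0.57 over the 6 fits). The count of lower genes was 4 without WT 1 or elav null 2.

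**Figure D3:**
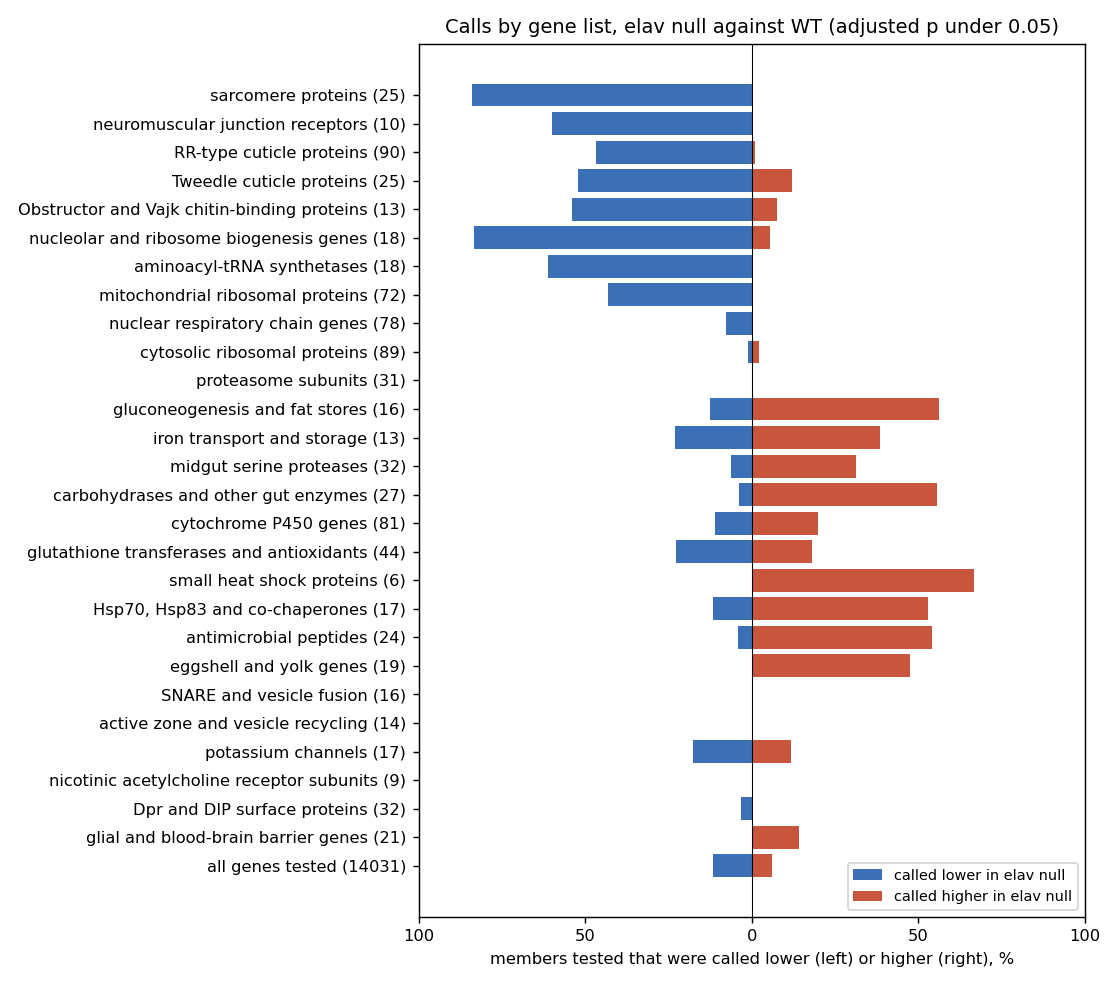
Percentage of the tested members of each gene list called lower (blue, to the left) or higher (red, to the right) in elav null against WT at an edgeR adjusted p under 0.05, with the number tested in brackets. The bottom row gives all 14031 genes tested, 11.7% lower and 5.99% higher. Sarcomere and nucleolar lists have their calls almost wholly on the left, heat shock and antimicrobial lists mostly on the right, and synaptic vesicle, active zone and proteasome lists have no calls.

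Genes that build the translation machinery were lower by smaller steps. Of 18 nucleolar and ribosome biogenesis genes 15 were lower and 1 higher, with a median log2 fold change of −1.43 (16, 0 and −1.42 without replicate 3). Fib, fibrillarin, the methyltransferase that modifies ribosomal RNA (CG9888; 2R: 23072909 to 23074725), stood at 413, 397 and 381 CPM in WT and at 169, 139.8 and 167 CPM in elav null. nop5, its partner in the same particle, stood at 417, 397 and 327 CPM in WT and at 103, 87.4 and 58.0 CPM in elav null. Nop60B, which makes pseudouridine in ribosomal RNA, stood at 539.6, 523 and 402 CPM in WT and at 169, 120.5 and 129 CPM in elav null. In these genes the spread within each group was small beside the gap between groups. The log2 fold changes were −1.32 ± 0.15 for Fib, −2.20 ± 0.21 for nop5 and −1.81 ± 0.21 for Nop60B (SE; edgeR adjusted p = 6.27e-05, 1.98e-05 and 6.1e-05). All 3 host or overlap small nucleolar RNAs, whose reads cannot be separated from theirs. Non1, a nucleolar GTP-binding protein, was the gene called higher (0.59 ± 0.19 SE, edgeR adjusted p = 0.0496), and it kept the call in 1 of 6 fits that leave out a library.

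The genes of the cytosolic ribosome did not share this shift. Of 89 tested 2 were higher and 1 lower, and their median log2 fold change was 0.17. The higher count was 1 without WT 2, WT 3, elav null 1 or elav null 2. The 3 calls fell on copies or relatives of the standard subunits. RpLP0-like fell from 86.5, 88.5 and 53.5 CPM to 23.1, 15.5 and 24.1 CPM (−1.87 ± 0.24 SE, edgeR adjusted p = 0.000132). RpL22-like, a paralog used in the germline, rose from 5.47, 5.84 and 3.44 CPM to 18.5, 18.6 and 10.8 CPM (1.70 ± 0.30 SE, edgeR adjusted p = 0.00125). RpS14b, which has a near-identical copy next to it, kept its call in 1 of 6 fits that leave out a library (0.87 ± 0.27 SE, edgeR adjusted p = 0.0385). None of 31 proteasome genes was called by edgeR, where 2 had an unadjusted p under 0.05, and DESeq2 called 1.

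Of 18 aminoacyl-tRNA synthetase genes, whose enzymes charge tRNAs, 11 were lower and none higher, with a median of −0.57 (12 lower and −0.64 without replicate 3). GluProRS stood at 89.7, 124 and 122 CPM in WT and at 55.6, 53.4 and 60.3 CPM in elav null (−0.99 ± 0.19 SE, edgeR adjusted p = 0.00219). ThrRS stood at 161, 169 and 148 CPM in WT and at 111, 93.0 and 92.2 CPM in elav null (−0.69 ± 0.14 SE, edgeR adjusted p = 0.00362). The differences were under 2-fold, and the groups did not overlap, as in most genes called lower. The count of lower synthetase genes was 7 without WT 2 or elav null 2.

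Mitochondria gave an uneven picture. Of 72 mitochondrial ribosomal protein genes 31 were lower and none higher, with a median of −0.93 (25 and −0.81 without replicate 3). mRpS30 stood at 102, 97.6 and 73.2 CPM in WT and at 44.7, 37.7 and 15.4 CPM in elav null (−1.48 ± 0.30 SE, edgeR adjusted p = 0.00371). mRpS5 stood at 64.2, 58.6 and 50.9 CPM in WT and at 39.7, 37.1 and 38.4 CPM in elav null (−0.59 ± 0.15 SE, edgeR adjusted p = 0.0126). The count leaned on single libraries and was 11 without WT 1, 12 without WT 2 and 20 without elav null 2. Of 78 nuclear genes of the respiratory chain 6 were lower and none higher. That count was 1 without WT replicate 1 or 2, 3 without elav null replicate 3, and 10 without WT replicate 3. UQCR-11, a subunit of complex III, stayed lower in all 6 fits that leave out a library (−1.20 ± 0.28 SE, edgeR adjusted p = 0.00864). It lost its call when only the 6 libraries compared were fitted (edgeR adjusted p = 0.06). None of the 13 mitochondrially encoded genes tested was called by edgeR or DESeq2 or had an unadjusted p under 0.05, but without elav null 1 the count of higher genes was 2, and without elav null 2 there was 1 lower gene.

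srl, the fly counterpart of the PGC-1 coactivator that promotes mitochondrial gene expression, was lower in elav null. It stood at 104, 145 and 110.2 CPM in WT and at 19.3, 19.5 and 29.3 CPM in elav null (−2.40 ± 0.21 SE, edgeR adjusted p = 9.95e-06). Without replicate 3 the log2 fold change was −2.61. Among 23 genes of insulin and TOR signalling it was the gene called lower, and 4 were higher, a count that was 2 without replicate 3 or without WT replicate 2. Thor, the translation inhibitor 4E-BP, rose from 428, 352 and 362 CPM to 976, 787 and 931 CPM (1.24 ± 0.24 SE, edgeR adjusted p = 0.00276). Rheb, a GTPase that activates TOR, rose from 107, 97.7 and 83.0 CPM to 186, 175 and 206 CPM (0.98 ± 0.15 SE, edgeR adjusted p = 0.000406). Both genes kept their calls in all 6 fits that leave out a library.

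Of 16 genes of gluconeogenesis and fat stores 9 were higher and 2 lower, with a median of 0.84 (8, 2 and 0.63 without replicate 3). Lpin, lipin, an enzyme of fat synthesis (CG8709; 2R: 8136986 to 8156654), stood at 293, 281 and 409 CPM in WT and at 731, 640.2 and 613 CPM in elav null. SREBP, the transcription factor that governs lipid synthesis, stood at 239, 290.1 and 307 CPM in WT and at 630.1, 517 and 689.7 CPM in elav null. Lsd-2, a perilipin that coats lipid droplets, went the other way, from 378, 389 and 458 CPM in WT to 204, 181 and 168 CPM in elav null. All 3 genes had separate groups. The log2 fold changes were 1.01 ± 0.18 for Lpin, 1.14 ± 0.18 for SREBP and −1.14 ± 0.20 for Lsd-2 (SE; edgeR adjusted p = 0.00167, 0.000489 and 0.00107).

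Glycolysis and its branches gave 3 lower genes of 15 and none higher, and 2 without replicate 3. Gpdh1, glycerol-3-phosphate dehydrogenase, stood at 835, 952 and 773 CPM in WT and at 286, 284 and 314 CPM in elav null (−1.53 ± 0.17 SE, edgeR adjusted p = 4.65e-05). Ldh, lactate dehydrogenase, stood at 538, 595 and 551 CPM in WT and at 322, 274 and 113 CPM in elav null (−1.25 ± 0.28 SE, edgeR adjusted p = 0.0073). The third elav null library was much the lowest in Ldh and not in Gpdh1. Without it the log2 fold changes were −0.90 and −1.57. Pfk, phosphofructokinase, was called at −0.55 ± 0.18 SE (edgeR adjusted p = 0.0467) and kept the call in 2 of 6 fits that leave out a library.

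Among 19 genes of fatty acid synthesis, desaturation and elongation 3 were lower and 1 higher. The 3 lower genes encode elongases. CG5326 stood at 274, 213 and 166 CPM in WT and at 35.9, 20.4 and 19.2 CPM in elav null (−3.11 ± 0.25 SE, edgeR adjusted p = 5.32e-06). bond stood at 84.9, 73.1 and 53.0 CPM in WT and at 17.3, 18.7 and 26.5 CPM in elav null (−1.76 ± 0.22 SE, edgeR adjusted p = 9.82e-05). Elovl7 stood at 85.0, 64.4 and 52.4 CPM in WT and at 17.1, 11.2 and 23.8 CPM in elav null (−1.96 ± 0.31 SE, edgeR adjusted p = 0.000615). No pair of groups overlapped, and the calls held in all 6 fits that leave out a library. FASN2, a fatty acid synthase, was called higher (1.0 ± 0.32 SE, edgeR adjusted p = 0.0444) but lost the call without replicate 3 (0.71), without WT replicate 1 or 2, or without elav null replicate 2 (0.71 to 1.20 over the 6 fits).

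Chaperone genes of the heat shock response were higher. Of 6 small heat shock protein genes 4 were higher and none lower (median 3.01). Hsp23 stood at 12.1, 13.9 and 6.35 CPM in WT and at 244, 146 and 160.3 CPM in elav null (4.09 ± 0.52 SE, edgeR adjusted p = 0.000123). Hsp27 stood at 30.4, 7.62 and 4.44 CPM in WT and at 271, 186 and 243 CPM in elav null (4.04 ± 0.85 SE, edgeR adjusted p = 0.00466). Even the highest WT library was far below the lowest elav null library in both. Of 17 genes of Hsp70, Hsp83 and their helpers 9 were higher and 2 lower, with and without replicate 3, and the higher ones include Hsp70 copies that share reads. DnaJ-1, an Hsp40 co-chaperone, stood at 94.7, 119.6 and 60.2 CPM in WT and at 499, 445 and 653 CPM in elav null (2.54 ± 0.39 SE, edgeR adjusted p = 0.000447). The 2 lower genes were Hsp60A, the mitochondrial chaperonin, at −1.22 ± 0.24 SE (edgeR adjusted p = 0.00309), and Droj2, a DnaJ family gene, at −0.71 ± 0.15 SE (edgeR adjusted p = 0.00504).

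The unfolded protein response of the endoplasmic reticulum gave 2 higher and 2 lower of 15 genes, against 5.99% and 11.7% of all genes. Xbp1, its transcription factor, stood at 421, 378 and 406 CPM in WT and at 813, 691 and 765 CPM in elav null (0.91 ± 0.16 SE, edgeR adjusted p = 0.00113). Herp, a protein of endoplasmic reticulum associated degradation, stood at 58.5, 63.3 and 52.8 CPM in WT and at 134, 129 and 157 CPM in elav null (1.27 ± 0.15 SE, edgeR adjusted p = 6.99e-05). Each rose by about the same amount in every elav null library. The kinase gene PEK (−0.56 ± 0.17 SE, edgeR adjusted p = 0.0328) and PPP1R15, a regulator of its target (−0.45 ± 0.14 SE, edgeR adjusted p = 0.0432), were lower. The count of lower genes, however, was 0 without elav null 1 or 2, 1 without WT 1, 2 or 3, and 3 without elav null 3. With RLE scaling the list had 3 higher and 0 lower, and with replicate blocks 2 and 0.

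Antimicrobial peptide genes were higher with a large spread. Of 24 tested 13 were higher and 1 lower, with a median of 3.88 (13 higher and 1 lower of 27, median 3.18, without replicate 3). AttB, attacin B, whose reads may be shared with AttA, stood at 3.30, 3.26 and 4.07 CPM in WT and at 62.8, 102 and 283 CPM in elav null. BomBc1, a gene of the Bomanin cluster on 2R, stood at 1.48, 0.457 and 2.10 CPM in WT and at 64.6, 97.2 and 77.6 CPM in elav null. BomBc2, from the same cluster, stood at 0.699, 0.0714 and 0.272 CPM in WT and at 6.64, 38.7 and 139 CPM in elav null. WT levels were low throughout, and elav null libraries differed from each other by up to 139 against 6.64 CPM in BomBc2. The log2 fold changes were 5.40 ± 0.56, 5.89 ± 0.53 and 7.40 ± 1.01 (SE; edgeR adjusted p = 3.5e-05, 1.15e-05 and 0.000202), and 4.55, 5.92 and 5.96 without replicate 3. Upstream of these effectors, 6 genes of the Toll and Imd pathways were higher and 2 lower of 28, and the lower count was 4 without elav null 3 and 1 without WT 2. SPE, the protease that activates the Toll ligand, rose from 12.6, 5.07 and 7.14 CPM to 34.3, 70.8 and 160.2 CPM (3.41 ± 0.49 SE, edgeR adjusted p = 0.000296). GNBP3, which recognises fungal glucans, rose from 17.2, 19.6 and 17.3 CPM to 48.4, 49.7 and 42.3 CPM (1.37 ± 0.18 SE, edgeR adjusted p = 0.000128). The receptor gene Tl was called higher (0.92 ± 0.24 SE, edgeR adjusted p = 0.0161) but not without replicate 3 (0.60, edgeR adjusted p = 0.0563) or WT replicate 2.

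Haemocyte genes were called in both directions. Of 20 genes of blood cells and the basement membrane they secrete, 3 were higher and 3 lower, and 1 lower without elav null 2. Over all genes tested 5.99% were higher and 11.7% lower. The phagocytosis receptor gene NimC1 rose from 15.3, 11.05 and 12.5 CPM to 30.2, 32.3 and 33.6 CPM (1.31 ± 0.19 SE, edgeR adjusted p = 0.000323). The scavenger receptor gene Sr-CI rose from 22.3, 17.6 and 23.1 CPM to 51.2, 44.2 and 64.9 CPM (1.35 ± 0.19 SE, edgeR adjusted p = 0.00025). Col4a1, collagen IV, was called lower (−0.83 ± 0.24 SE, edgeR adjusted p = 0.0321), but not without WT 3 or elav null 1 or 2. The summed level of 3 haemocyte markers was 178.7 to 272.3 CPM in WT and 146.4 to 243.4 CPM in elav null, ranges that overlap. Of 23 genes of JAK-STAT and JNK stress responses 3 were lower, near the share of all genes, and none higher. Ets21C, a transcription factor that JNK signalling induces, stood at 26.03, 60.6 and 74.5 CPM in WT and at 8.89, 6.96 and 8.50 CPM in elav null (−2.73 ± 0.32 SE, edgeR adjusted p = 8.17e-05). In elav WDd it stood at 7.85, 6.30 and 7.32 CPM, so the low level was not particular to elav null.

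Genes of carbohydrases and other gut enzymes were higher, and those of midgut serine proteases less evenly so. Of 27 carbohydrases and other gut enzymes 15 were higher and 1 lower, with a median of 1.11 (16, 1 and 0.94 without replicate 3). LManII, a lysosomal alpha-mannosidase, stood at 142, 199.9 and 154 CPM in WT and at 338, 289 and 339.6 CPM in elav null. Mal-A3, a maltase, stood at 289, 239 and 258 CPM in WT and at 477, 430.3 and 540.0 CPM in elav null. The groups were apart in both genes, by 0.96 ± 0.19 and 0.88 ± 0.16 on the log2 scale (SE; edgeR adjusted p = 0.00317 and 0.00183). The alpha-amylase gene Amy-p rose more, by 2.80 (SE 0.16, edgeR adjusted p = 7.69e-07), though reads may be shared with its copy Amy-d. Of 32 midgut serine protease genes 10 were higher and 2 lower (1 lower without WT 2), but 6 were higher without WT 2 or elav null 1 or 2. When only the 6 libraries compared were fitted, 5 were higher. Relative to the WT mean, the median of the protease list was 0.45, 0.28 and −0.02 in elav null 1 to 3 on the log2 scale. It was −0.29 to 0.22 in the WT libraries, so elav null 3 lay inside the WT range. Jon25Bi stood at 978, 1131 and 866 CPM in WT and at 1804, 2281 and 1905 CPM in elav null (1.01 ± 0.18 SE, edgeR adjusted p = 0.00139). Jon65Aiv stood at 835, 973 and 817 CPM in WT and at 1611, 1678 and 1344 CPM in elav null (0.82 ± 0.17 SE, edgeR adjusted p = 0.00376). The summed level of 17 midgut genes was 6530 to 9306 CPM in WT and 11200 to 13460 CPM in elav null, without overlap. These genes are Amy-p and the Jon proteases, members of the lists above, so the sum is not separate evidence. The part of a larger share of midgut RNA in these results was not tested.

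Iron handling gave 5 higher and 3 lower of 13 genes. The ferritin subunit genes Fer1HCH and Fer2LCH, which lie end to end on 3R and overlap, rose together. Fer1HCH stood at 503, 445 and 420.4 CPM in WT and 797, 737 and 831 CPM in elav null (0.79 ± 0.16 SE, edgeR adjusted p = 0.0039). Fer2LCH stood at 509, 497 and 531 CPM in WT and 810.3, 748 and 906 CPM in elav null (0.68 ± 0.15 SE, edgeR adjusted p = 0.00735). Irp-1B, an iron regulatory protein, rose from 226, 293 and 272 CPM to 964, 564 and 476 CPM (1.34 ± 0.26 SE, edgeR adjusted p = 0.00227). In elav WDd Irp-1B stood at 487, 496 and 451 CPM, also above every WT library. The count of lower iron genes was 1 without WT 2 or 3 or elav null 2.

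Detoxification genes were called in both directions. Of 44 glutathione transferase and antioxidant genes 8 were higher and 10 lower, and 4 were higher without WT replicate 2. Cat, catalase, had narrow groups, at 119.9, 102 and 99.8 CPM in WT and 436, 463 and 409 CPM in elav null (2.02 ± 0.16 SE, edgeR adjusted p = 4.25e-06). GstT4 rose from 114, 69.0 and 77.4 CPM to 244, 330.1 and 292 CPM (1.73 ± 0.20 SE, edgeR adjusted p = 6.1e-05). GstE3 fell from 243, 191 and 263 CPM to 73.9, 48.3 and 46.4 CPM (−2.05 ± 0.27 SE, edgeR adjusted p = 0.00015). Of 81 cytochrome P450 genes 16 were higher and 9 lower, and 18 and 16 without replicate 3. Cyp12a4, a mitochondrial P450, rose from 80.0, 85.9 and 79.7 CPM to 296, 246 and 268 CPM (1.72 ± 0.15 SE, edgeR adjusted p = 9.95e-06). Cyp9f2 rose from 100.4, 90.8 and 89.4 CPM to 268, 267 and 247 CPM (1.48 ± 0.16 SE, edgeR adjusted p = 4.6e-05). Cyp4g1, which makes cuticular hydrocarbons in oenocytes, rose from 113, 110.2 and 109 CPM to 144, 196 and 243 CPM (0.81 ± 0.19 SE, edgeR adjusted p = 0.00936).

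**Figure D4:**
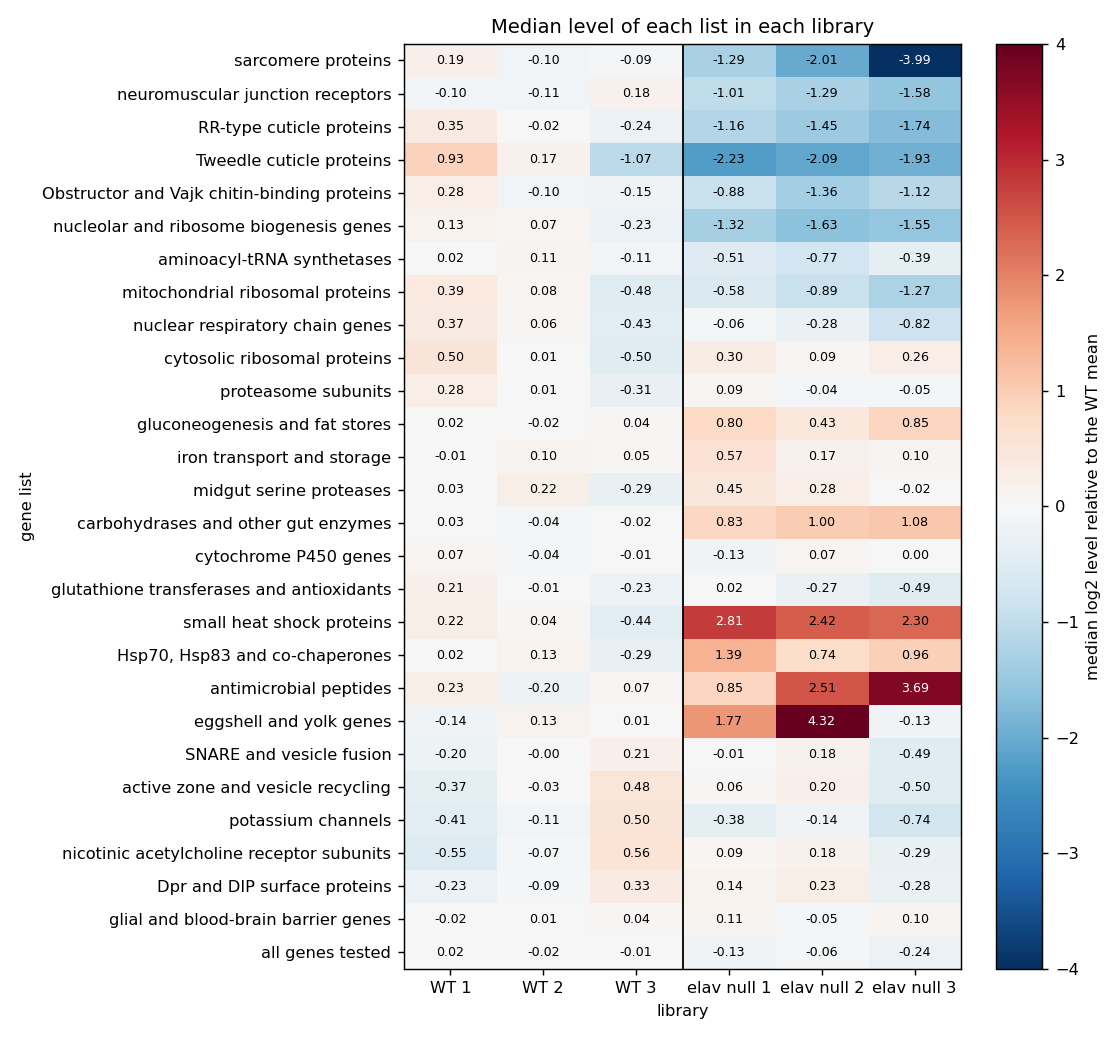
Median level of each gene list in each of the 6 libraries, as log2 of CPM plus 0.5 relative to the mean of the WT libraries; red is higher and blue lower, and the number in each cell is the value. Sarcomere proteins run from −1.29 in elav null replicate 1 to −3.99 in replicate 3, antimicrobial peptides from 0.85 to 3.69, and Tweedle proteins already differ among the WT libraries, from 0.93 to −1.07.

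In the nervous system, where elav acts, calls of whole genes differed between lists, while 5.99% of all genes tested were higher and 11.7% lower. None of 16 genes of SNARE and vesicle fusion, 14 of the active zone and vesicle recycling, 7 of the sodium channel and its auxiliary subunits, and 9 nicotinic acetylcholine receptor subunits was called by edgeR. DESeq2 called none either, and 1 gene in each of these lists had an unadjusted p under 0.05 in edgeR. Their median log2 fold changes were −0.14, −0.11, −0.26 and 0.05, against −0.11 over all genes. These neuronal lists were lowest in WT replicate 1 and highest in WT replicate 3 among the controls, by −0.20 and 0.21 for the SNARE list and −0.37 and 0.48 for the active zone list. The elav null libraries lay at −0.01, 0.18 and −0.49 for the first and at 0.06, 0.20 and −0.50 for the second, so replicates 1 and 2 were inside the WT range and replicate 3 below it. Leaving out elav null replicate 2 gave 2 lower calls in the SNARE list, and leaving out replicate 3 gave 1 higher. The active zone list had 1 lower call without WT 1 and 1 higher without WT 3, and the sodium channel list 1 lower without WT 1. The summed level of 5 neuronal markers was 944.8 to 2046 CPM in WT, and in elav null replicates 1 to 3 it was 1273, 1487 and 859.9 CPM. These markers are elav, nSyb, brp, Syt1 and para. The sum thus holds the removed gene itself, which stood at 68.6 to 161 CPM in WT and 3.98 to 6.27 CPM in elav null. Lists this short would hold few calls at the shares of all genes, and a missed threshold does not show that levels were equal.

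Among 32 Dpr and DIP genes, cell-surface proteins that pair between neurons, 1 was called lower. This was dpr10, at 35.0, 39.9 and 44.0 CPM in WT and 27.8, 26.4 and 22.7 CPM in elav null (−0.63 ± 0.18 SE, edgeR adjusted p = 0.027). The call was lost without replicate 3 (−0.54, edgeR adjusted p = 0.0658), and without WT 2 or 3 or elav null 2. With RLE scaling dpr10 also lost its call (−0.54, edgeR adjusted p = 0.0582), and the list had 2 higher genes and 0 lower. DESeq2 gave 2 higher and 1 lower, and without WT 3 there were 3 higher genes. None of 7 genes of ecdysis peptides and their receptors was called by edgeR, with or without replicate 3, where 1 had an unadjusted p under 0.05, or by DESeq2. Without elav null 2 there was 1 lower gene.

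Of 17 potassium channel genes 3 were lower and 2 higher, the same numbers without replicate 3, and 1 higher without WT 2. Irk2, an inward rectifier, stood at 174, 183 and 149.8 CPM in WT and at 64.7, 34.8 and 33.9 CPM in elav null (−1.92 ± 0.24 SE, edgeR adjusted p = 0.000121). Its relative Irk3 stood at 15.96, 23.8 and 16.7 CPM in WT and at 40.6, 31.9 and 39.1 CPM in elav null (0.98 ± 0.20 SE, edgeR adjusted p = 0.00331). These inward rectifiers thus moved in opposite directions, and neither had overlapping groups. Inward rectifiers of the fly are also known from non-neuronal tissue such as the Malpighian tubules. KCNQ stood at 52.5, 67.1 and 68.3 CPM in WT and at 40.8, 38.2 and 38.7 CPM in elav null (−0.67 ± 0.16 SE, edgeR adjusted p = 0.00813). SK, a calcium-activated channel, stood at 89.7, 152 and 223 CPM in WT and at 54.8, 66.7 and 84.9 CPM in elav null (−1.17 ± 0.28 SE, edgeR adjusted p = 0.0108).

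Of 18 neuroblast factors 2 were higher and 1 lower, against 4 and 0 with RLE scaling. The higher count was 1 without WT 1, WT 2 or elav null 3, and 4 without elav null 1. ase, a proneural gene of neuroblasts, stood at 2.45, 1.89 and 2.35 CPM in WT and at 3.50, 7.93 and 26 CPM in elav null (2.47 ± 0.56 SE, edgeR adjusted p = 0.00716). wor, a zinc finger gene of neuroblasts, stood at 2.60, 3.86 and 3.42 CPM in WT and at 4.14, 6.52 and 23.2 CPM in elav null (1.77 ± 0.55 SE, edgeR adjusted p = 0.04). Both were by far the highest in elav null replicate 3. Without it ase kept its call at a log2 fold change of 1.36 (edgeR adjusted p = 0.0175) and wor did not (0.70, edgeR adjusted p = 0.255). grh, a late temporal factor that also acts in the epidermis, was lower (−0.67 ± 0.20 SE, edgeR adjusted p = 0.0331), but not without WT 3 or elav null 1 or 2. Of 21 glial and blood-brain barrier genes 3 were higher, against 5.99% of all genes, and none lower. The higher count was 1 without WT replicate 2. Mdr65, a drug transporter of the blood-brain barrier, rose from 82.1, 79.6 and 106 CPM to 185, 153 and 175 CPM (0.94 ± 0.17 SE, edgeR adjusted p = 0.00198). The glial master gene repo stood at 16.6, 16.2 and 17.6 CPM in WT and at 25.2, 24.0 and 37.3 CPM in elav null (0.78 ± 0.20 SE, edgeR adjusted p = 0.0137), and lost its call without WT replicate 2.

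Sensory cilia genes gave 2 higher and 1 lower of 19, against 5.99% and 11.7% of all genes. The higher count was 1 without WT 1 or 2, and the lower count 2 without elav null 1. nompC, the mechanotransduction channel of touch and hearing neurons, fell from 27.0, 38.1 and 46.5 CPM to 20.3, 14.9 and 15.3 CPM (−1.14 ± 0.23 SE, edgeR adjusted p = 0.00379). Oseg4, a component of intraflagellar transport, rose from 9.02, 8.79 and 11.5 CPM to 20.2, 26.4 and 15.4 CPM (1.08 ± 0.24 SE, edgeR adjusted p = 0.00717). Both kept their calls in all 6 fits that leave out a library, but Oseg4 lost its call when only the 6 libraries compared were fitted (edgeR adjusted p = 0.0585).

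Of 18 genes of the ecdysone receptor and its response 2 were lower, against 11.7% of all genes, and none higher. The lower count was 4 without replicate 3 or without elav null replicate 2. Eip74EF, an ecdysone-induced transcription factor, stood at 54.3, 46.6 and 33.6 CPM in WT and at 6.87, 10.96 and 17.7 CPM in elav null (−1.93 ± 0.33 SE, edgeR adjusted p = 0.00112). MsrA, an ecdysone-induced methionine sulfoxide reductase, stood at 29.0, 36.8 and 23.5 CPM in WT and at 8.89, 9.40 and 3.62 CPM in elav null (−2.02 ± 0.35 SE, edgeR adjusted p = 0.00111). The groups did not overlap, and replicate 3 was the highest elav null library in the first gene and the lowest in the second. Of 11 genes of ecdysteroid synthesis 1 was lower, spok, a cytochrome P450 of the prothoracic gland. It stood at 8.53, 10.2 and 6.96 CPM in WT and at 1.002, 3.10 and 0 CPM in elav null (−2.62 ± 0.85 SE, edgeR adjusted p = 0.0493), and kept its call in 2 of 6 fits that leave out a library.

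None of 14 genes of the Enhancer of split complex, targets of Notch signalling, was called by edgeR, where 3 had an unadjusted p under 0.05, and DESeq2 called 1. Their median log2 fold change was 1.61, and 0.69 without replicate 3. None of 27 genes of the cell cycle and DNA replication was called by edgeR or DESeq2, and 1 had an unadjusted p under 0.05. Without replicate 3, 1 of them was lower. Of 12 genes of programmed cell death 1 was higher, the caspase gene Decay, at 45.0, 39.6 and 30.0 CPM in WT and 71.4, 66.5 and 63.3 CPM in elav null (0.81 ± 0.19 SE, edgeR adjusted p = 0.00988). It lost its call without WT replicate 2, as did the 2 higher genes of 13 in the salivary gland list.

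elav null replicate 3 departed from the other elav null libraries mostly downwards. Among 7199 genes whose mean over the 6 libraries reached 10 CPM, 150 were more than 4-fold below both other elav null libraries in replicate 3 and 25 more than 4-fold above both. For replicate 1 the counts were 20 below and 2 above, and for replicate 2 they were 0 below and 10 above. Of the 150 low genes, 127 were also below both elav null replicates 1 and 2 in all 3 double null libraries, and of the 25 high genes, 21 were above them. The same held for 2024 (28.1%) and 1351 (18.8%) of all 7199 genes. Mpcp1, a mitochondrial phosphate carrier, stood at 159.6, 136 and 136 CPM in WT, at 37.1, 58.5 and 0 CPM in elav null, and at 2.32, 4.14 and 2.75 CPM in the double null. FoxP, a transcription factor of neurons, stood at 10.5, 11.7 and 16.7 CPM in WT, at 16.6, 11.1 and 0 CPM in elav null, and at 0.742, 0 and 0.732 CPM in the double null. In both genes replicate 3 was close to the double null libraries and apart from its own group, and neither passed the test with all libraries (edgeR adjusted p = 0.146 and 0.834). Without replicate 3 Mpcp1 was lower in elav null (−1.58, edgeR adjusted p = 0.000769), and FoxP was not called (0.11, edgeR adjusted p = 0.95). Among the 8 genes with the largest departures, all lower in replicate 3, CG15406 was called higher without that library (0.70, edgeR adjusted p = 0.0271). Not all of the 8 lay near the double null. CG15406 and CG42319 had 0 counts in replicate 3 but 7.45 to 9.05 and 4.50 to 12.2 CPM in the double null. Of the 8 only CG1304 had a count in replicate 3. Low values were nearly missing from replicate 3, so a 0 there does not fix a level. Whether this library carried the genotype of its label was not tested.

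**Figure D5:**
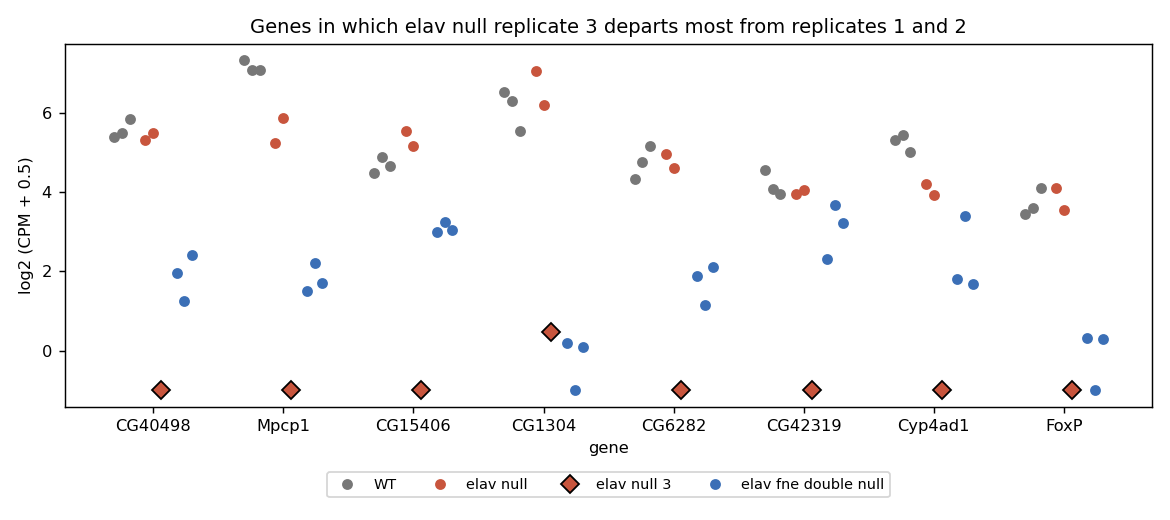
Level, as log2 of CPM plus 0.5, of the 8 genes in which elav null replicate 3 (diamond) departs most from elav null replicates 1 and 2 (red circles), beside WT (grey) and the elav fne double null (blue). Mpcp1 has 0 counts in replicate 3, 37.1 and 58.5 CPM in the other elav null libraries, and 2.32 to 4.14 CPM in the double null.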

How the data were processed

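Raw read counts per gene, 1 column per library, were deposited by the authors. The submitters' processing notes name the dm6 build, featureCounts 2.0.8, STAR 2.7.11a, DESeq2 1.40.2 and Trim Galore 0.6.7. The role of each tool, the strand setting and the handling of reads with several matches are not given in the sources used here. All 17561 gene numbers matched the RefSeq table of Release 6, which gave symbols and positions. Of the 186 genes chosen by the naming rule, 60 (32.3%) overlap another gene.

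Counts of all 12 libraries were fitted together in edgeR 4.0.16 under R 4.3.3, with TMM factors, filterByExpr, group as the only term, quasi-likelihood F tests (two-sided) and Benjamini-Hochberg adjustment over the 14031 genes tested. The common biological coefficient of variation was 0.595. The 6 libraries compared held 22491041 to 97043662 counts. Without replicates known to be separate, precision reflects library spread and counting error.

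The comparison, the 55 gene lists and the tests were chosen with earlier results of these data known. Lists are described by counts and medians, with no test of the list. Genes named are the ELAV family, arg, msl-2, Sxl, roX2 and roX1, and at most 4 called members of each list, those with the highest mean CPM. The rule adds 12 genes of largest change in each direction among those called with and without elav null replicate 3, with at least 10 CPM and separate groups, and 8 genes in which that library departs most. Alternatives were RLE factors, no filter, only the 6 libraries, replicate blocks, robust dispersion, a 2-fold minimum, DESeq2 1.42.0 and leaving out each library.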

Additional observations from a re-analysis of the deposited data

How the results depend on the processing

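The numbers of genes called in edgeR were 841 higher and 1638 lower. Fitting only the 6 libraries compared gave 450 and 823, a 2-fold minimum 167 and 401, and DESeq2 1369 and 1799. Leaving out each library in turn gave 493 to 855 higher and 1131 to 1636 lower genes, the lowest of both without WT replicate 2. Additions chosen after seeing the data were a fit of 5 libraries with elav null replicates 1 and 2 alone (514 higher, 1096 lower) and a fit without the double null (751 and 1449).

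Of the 175 named genes that were called, 124 kept the call in all 6 fits that leave out a library. A 2-fold minimum ended 109 calls, the 6 libraries alone 62, and leaving out WT replicate 2 ended 39. Whether the replicate numbers pair the libraries is not known. The correlations of same-numbered deviations were 0.103, −0.0626 and 0.0276, and those of other pairs −0.119 to 0.0916. Such values cannot decide whether libraries were collected or processed together. With the replicate number as a block, 752 genes were higher and 1487 lower.

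Reversed log2 fold changes all belonged to genes that were not called with all libraries. arg gave −0.64 to 0.01 over the fits that leave out a library, the latter without WT replicate 1. Over the same fits fne gave −0.89 to 0.10, CG6282 −1.14 to 0.02, FoxP −1.19 to 0.11 and CG1304 −0.95 to 0.53, each highest without elav null replicate 3, and the fit of 5 libraries gave 0.09, 0.01, 0.10 and 0.52. CG15406 gave −0.18 with the block, and −0.49 (without elav null replicate 1) to 0.70 (without replicate 3) over those fits, with −0.11 without replicate 2. CG1304 gave 0.03 with RLE, 0.00 without the filter, 0.02 in DESeq2 and 0.17 without WT replicate 1. The cause of these changes was not tested.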

Other observations

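Of 14 germline genes tested 4 were higher and none lower, and 5 without elav null replicate 3, but 2 without WT replicate 2. The germ cell helicase gene vas stood at 4.54, 4.26 and 2.97 CPM in WT and at 12.99, 19.2 and 19.2 CPM in elav null (2.12 ± 0.35 SE on the log2 scale, edgeR adjusted p = 0.000792). qin, which acts in the piRNA pathway, stood at 5.43, 1.80 and 3.42 CPM in WT and at 10.3, 10.3 and 19.04 CPM in elav null (1.89 ± 0.43 SE, edgeR adjusted p = 0.00793). The groups were separate in both. Transcripts of the adult ovary and fat body were unequal within elav null. Eggshell and yolk genes, 20 in all, summed to 3.39 to 6.80 CPM in WT, and in elav null replicates 1 to 3 to 98.4, 738.2 and 20.3 CPM. Of 19 tested 9 were higher, and 4 without replicate 2. The flight muscle actin gene Act88F had 12.7, 105 and 2 CPM in the same libraries. Whether a library held RNA of adult flies was not tested.

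Calls were spread over the chromosome arms. On X, where elav lies, 5.22% of 2202 genes were higher and 12.4% lower, against 5.73% to 6.43% higher and 10.8% to 12.7% lower on the large autosomal arms. The median log2 fold change on X was −0.20 with and without elav null replicate 3. Of the small chromosome 4, 1 gene was higher and 13 lower of 100 tested. roX2, a non-coding RNA of male dosage compensation, stood at 8.61, 7.83 and 4.90 CPM in WT and at 37.0, 47.3 and 59.5 CPM in elav null (2.75 ± 0.26 SE, edgeR adjusted p = 1.55e-05). Its partner roX1 stood at 225, 300.1 and 282 CPM in WT and at 525, 688 and 701 CPM in elav null (1.25 ± 0.19 SE, edgeR adjusted p = 0.000441). In elav WDd roX2 stood at 19.5, 20.8 and 25.4 CPM and roX1 at 710, 739 and 756 CPM, also above every WT library. Sxl, the switch gene of female development, stood at 212, 244 and 349 CPM in WT and at 136, 175 and 182 CPM in elav null (−0.71 ± 0.21 SE, edgeR adjusted p = 0.0328). Its call was lost without WT 3, elav null 1 or elav null 2, and with RLE scaling. msl-2, which encodes a subunit of the male dosage compensation complex, stood at 20.95, 27.5 and 28.5 CPM in WT and at 39.7, 39.8 and 25.1 CPM in elav null (0.45 ± 0.20 SE, edgeR adjusted p = 0.165). Without elav null replicate 3 it was called higher (0.64, edgeR adjusted p = 0.0224). Of 12 genes of dosage compensation and sex determination 2 were higher and 3 lower, with 0 lower when WT replicate 3 was left out and 1 when elav null replicate 1 or 2 was, or with RLE scaling. None of 6 Y-linked genes tested was called by edgeR, where 3 had an unadjusted p under 0.05, and DESeq2 called 1 higher and 1 lower. The sex of the embryos in a library is not stated. The control label elav[e5]/FM7, an allele over a balancer X chromosome, names a female genotype. Whether the control libraries held only such embryos is not given. The elav null label does not say whether the mutants were hemizygous males. Mutants were sorted by their lack of the FM7 balancer X chromosome that the control label names. A difference in sex between the groups therefore cannot be told apart from genotype here, and its part in these values was not tested.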
